A study of Mus musculus and Homo sapiens
Mus musculus with 14 samples.

Results

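The 9 genes of the AMPA and kainate receptor subunits, Gria1 to Gria4 and Grik1 to Grik5, were followed through the layers and amacrine cells of the mouse retina. They were found in the tables by symbol, and all 9 were among the 24460 genes of the layer counts and the 18415 genes of the amacrine counts. AMPA and kainate receptors are the ionotropic glutamate receptors that carry most fast excitatory transmission in the retina. Each receptor is an assembly of 4 subunits around a cation pore. AMPA receptors are built from the products of Gria1, Gria2, Gria3 and Gria4, and kainate receptors from those of Grik1, Grik2 and Grik3, which can form channels of their own, joined by those of Grik4 and Grik5, which need a partner of the first kind. Photoreceptors release glutamate onto bipolar and horizontal cells, and bipolar cells release it onto amacrine and ganglion cells. OFF cone bipolar cells and horizontal cells receive the photoreceptor signal through AMPA and kainate receptors, whereas rod bipolar and ON cone bipolar cells use the metabotropic receptor mGluR6.

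The counts came from Light-Seq, in which RNA is reverse transcribed inside fixed tissue and the cDNA of chosen cells is tagged with a DNA barcode by light. The retinas were from wild-type CD1 mice in the third postnatal week, with no treatment in any group. In 4 cryosections, all from the same animal, the outer nuclear layer (ONL, rod and cone cell bodies), the bipolar cell layer (BCL, with bipolar, horizontal and Müller glial cell bodies) and the ganglion cell layer (GCL, ganglion and displaced amacrine cells) each received their own barcode. In 5 other sections, the few amacrine cells stained for tyrosine hydroxylase (TH+, the dopaminergic type) received one barcode and many neighbouring unstained amacrine cells (TH-) another. The study's methods speak of a single source animal for its Light-Seq sections, so sections are replicates of tissue rather than of animals, and p-values measure the spread between sections.

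A unique molecular identifier (UMI) let each cDNA molecule be counted once, and levels are given as CPM, the UMIs of a gene scaled to the same library total. Libraries held 310228 to 801105 UMIs for the ONL, 193869 to 208437 for the BCL, 585655 to 785013 for the GCL, 30317 to 87449 for TH+ cells and 134394 to 200344 for TH- cells, so values of TH+ libraries rest on the fewest molecules. The defining markers followed the labels. The summed rod list was 1089% of its GCL level in the ONL, the bipolar list 1550% of its GCL level in the BCL, the ganglion list 1319% of its BCL level in the GCL, and the dopaminergic list 1737% of its TH- level in TH+ cells. Markers of other cell types were measured in every layer, and whether they came from such cells there or from RNA or barcodes of other layers was not tested. In the ONL, the bipolar list stood at 10.01% and the Müller glia list at 12.5% of their BCL levels, and in the GCL at 6.45% and 22.8%. In the BCL, the rod list had 12261 to 20809 CPM, against 56552 to 69377 CPM in the ONL, and the amacrine list stood at 46.7% of its GCL level. In TH+ libraries the rod list stood at 172%, the bipolar list at 65.3% and the Müller glia list at 66.4% of the TH- level.

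All 9 subunits share a pore loop, and its sequence is shown because the codon in it decides calcium entry through AMPA receptors and because its likeness between some subunits bears on whether short reads can tell the subunits apart. The 27 bases below were read from the canonical GENCODE vM39 transcripts on GRCm39, the assembly the counts were made on, and the capitals mark the codon for the glutamine of the Q/R site. In Gria2 RNA, and in part of Grik1 and Grik2 RNA, the enzyme encoded by Adarb1 deaminates the adenosine of this codon, so that arginine is made in place of glutamine. Editing itself was not measured here.
Gria1: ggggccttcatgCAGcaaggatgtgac
Gria2: ggtgcctttatgCAGcaaggatgcgat
Gria3: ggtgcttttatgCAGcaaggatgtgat
Gria4: ggtgcctttatgCAAcaaggatgtgac
Grik1: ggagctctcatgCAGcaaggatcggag
Grik2: ggagctctcatgCAGcaaggttctgag
Grik3: ggctccctgatgCAGcaaggatctgaa
Grik4: ggaggcttcatgCAGcaaggctccact
Grik5: ggtggcttcatgCAGcagggctcggag

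The codon was CAG in 8 members and CAA in Gria4. Gria2 and Gria3 shared 25 of the 27 bases, as did Grik1 and Grik2, and Grik4 shared only 17 with Gria4 and 17 with Grik3. Exact repeats of read length were rare along the canonical transcripts. Of all stretches of 40 bases, the longest cDNA read used, at most 0.418% recurred in another member, in Gria3, and none did in Gria1, Gria2, Gria4, Grik1 or Grik5. Only exact matches between canonical transcripts were sought, so shorter reads and near matches such as those of the pore loop were not covered. The Gria2 codon lay in exon 11 of 16 at chr3:80614218-80614220 on the minus strand. The Grik1 codon lay in exon 12 of 16 at chr16:87737430-87737432, also on the minus strand.

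The genes are long and scattered over the genome. On GRCm39, Gria1 spans chr11:56902153-57221080, Gria2 chr3:80588757-80710538, Gria3 chrX:40489476-40767490 and Gria4 chr9:4417604-4796326. Grik1 spans chr16:87692788-88087153, Grik2 chr10:48970929-49664880, Grik3 chr4:125384202-125607966, Grik4 chr9:42429431-42856154 and Grik5 chr7:24709269-24772708. Only exons were counted. Exons of other annotated genes cover 2.72% of the exonic bases of Gria2, 2.66% of those of Gria4, 1.65% of those of Grik5 and less than that of the others. The counting used the default settings of featureCounts, which ignore strand and leave a read that overlaps exons of several genes unassigned. Within these stretches, such as where Zfp574 lies opposite Grik5, reads of a member could therefore go uncounted. The overlaps were read from GENCODE vM39, a later release than the one used for the counts.

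Grik1, the gene of the GluK1 subunit, was the member with the sharpest layer difference. Grik1 had 748, 763, 625 and 672 CPM in the BCL of sections 1 to 4, from 123 to 159 UMIs each. The ONL of the same sections had 51.2, 37.3, 34.2 and 64.5 CPM, and the GCL 52.2, 52.5, 92.2 and 37.6 CPM. Every BCL library was therefore several-fold above every library of the other layers, and the ONL and GCL ranges overlapped. The mean was 702 ± 64.8 CPM in the BCL, 46.8 ± 13.9 in the ONL and 58.6 ± 23.5 in the GCL (SD, n = 4), or 14.997 times the ONL mean and 11.98 times the GCL mean. In the edgeR fit, with scale factors from the trimmed mean of M values (TMM), Grik1 was lower in the ONL than in the BCL by a log2 fold change of -3.61 ± 0.17 (SE, adjusted p = 3.67e-24) and higher in the BCL than in the GCL by 3.41 ± 0.16 (adjusted p = 4.75e-25). Between the ONL and the GCL the log2 fold change was -0.20 ± 0.22 (adjusted p = 0.433, 95% interval -0.64 to 0.23), so no difference was resolved.

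In bulk counts of a layer, fewer cells of a type and less RNA per cell cannot be told apart. Grik1 in the ONL stood at 6.67% and in the GCL at 8.35% of its BCL level. The summed list of 5 OFF cone bipolar markers had 295 to 413 CPM in the BCL, 18.0 to 38.7 CPM in the ONL and 93.0 to 130.4 CPM in the GCL, so that its mean stood at 7.07% of the BCL level in the ONL and 31.6% in the GCL. The list of 8 bipolar markers had 6088 to 6885 CPM, 529.8 to 764 CPM and 367 to 492 CPM. The horizontal cell list had 262 to 427 CPM in the BCL, 20.5 to 32.2 CPM in the ONL and 58.1 to 144 CPM in the GCL, so that its mean was 7.87% of the BCL level in the ONL and 32.1% in the GCL. All of these list genes had UMIs in each layer, and the part of these cells in the Grik1 values was not tested.

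**Figure D1:**
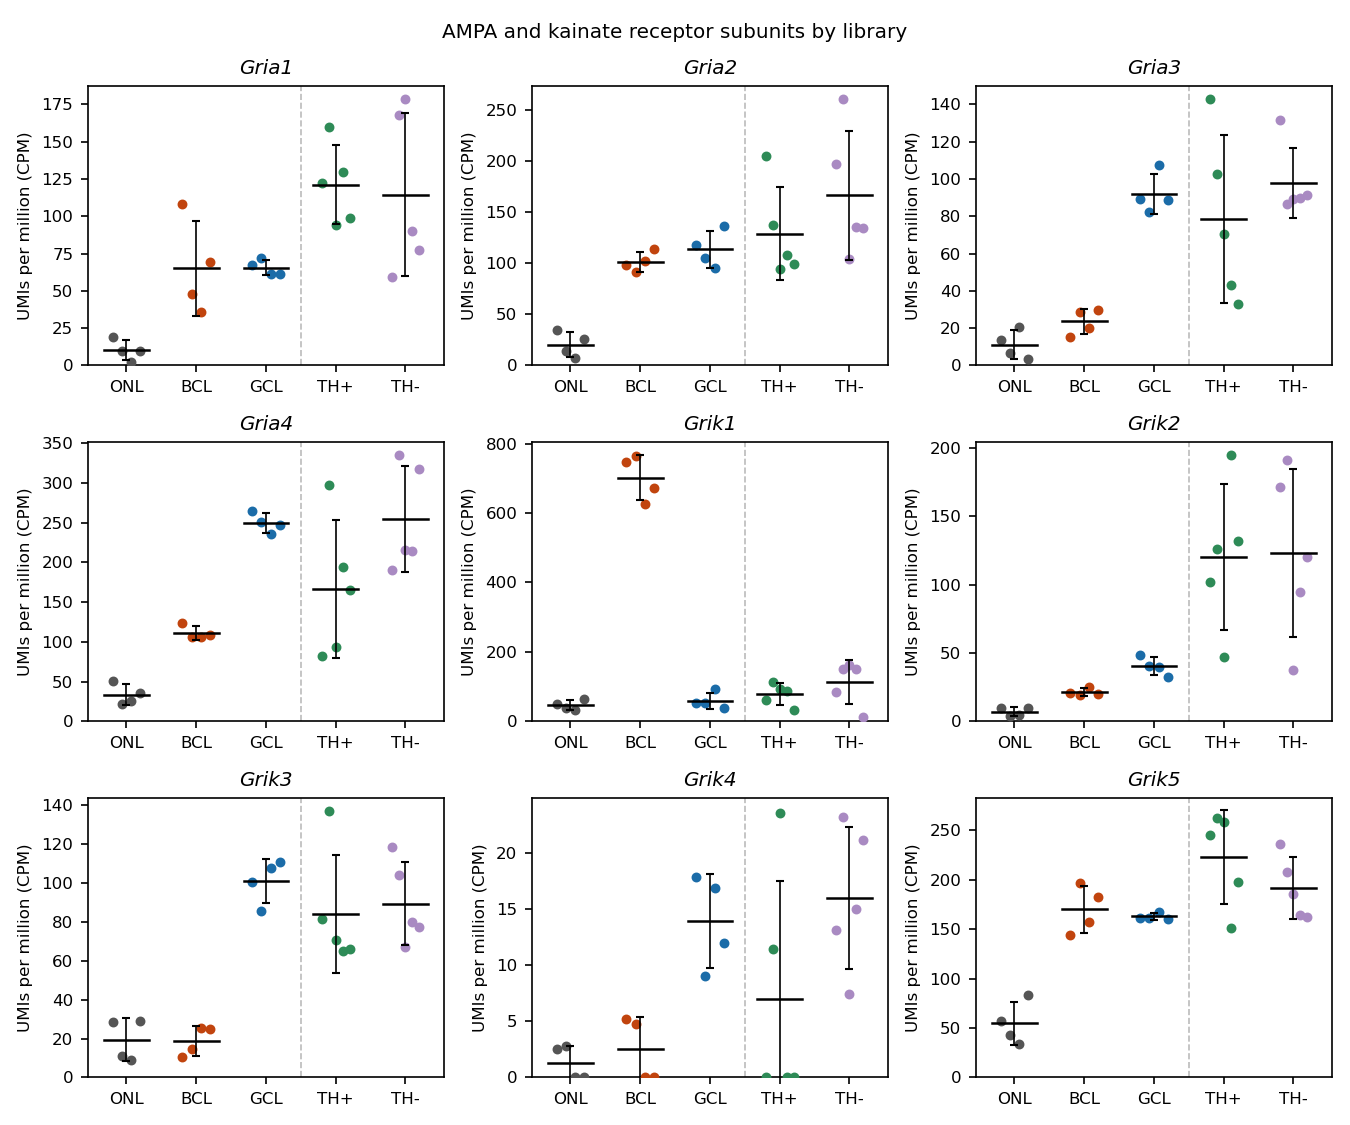
Level (CPM, y axis) of each of the 9 subunits (each panel with its own scale) in every library; points are sections, bars are group means with SD, and the dashed line separates the layer sections from the amacrine sections. Grik1 in the BCL lies between 625 and 763 CPM, above every other library, whereas Gria3 and Grik3 lie higher in the GCL than in the ONL and the BCL.

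The other kainate subunits that form channels on their own lay highest in the GCL among the layers. Grik3, the gene of GluK3, had 101, 85.4, 108 and 111 CPM in the GCL, against 10.3, 14.4, 25.4 and 24.7 CPM in the BCL and 28.7, 11.1, 9.13 and 29.0 CPM in the ONL. The ranges of the BCL and ONL overlapped, and neither reached that of the GCL. Grik3 was lower in the BCL than in the GCL by a log2 fold change of -2.58 ± 0.32 (SE, adjusted p = 1.72e-09) and lower in the ONL than in the GCL by -2.20 ± 0.23 (adjusted p = 3.63e-12), and between the ONL and BCL it was not called (0.38 ± 0.44, adjusted p = 0.556).

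Grik2, the gene of GluK2, was sparse in the layers. It had 4 to 5 UMIs in each BCL library (19.2 to 25.4 CPM), 2 to 8 in each ONL library (4.15 to 9.99 CPM) and 19 to 38 in each GCL library (32.4 to 48.4 CPM). The layer ranges did not overlap, and the order was ONL, BCL, GCL. The log2 fold change was -1.23 ± 0.49 for the ONL against the BCL (adjusted p = 0.0429), -1.10 ± 0.34 for the BCL against the GCL (adjusted p = 0.00876) and -2.32 ± 0.32 for the ONL against the GCL (adjusted p = 1.32e-08). The ONL against BCL call was lost without section 2, 3 or 4 (adjusted p = 0.168, 0.201 and 0.0773) and without the low-count filter (adjusted p = 0.107), and the BCL against GCL call without section 1 (adjusted p = 0.0537). DESeq2 made neither call (adjusted p = 0.0594 and 0.0617).

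The 2 partner subunits differed from each other in level. Grik5, the gene of GluK5, had 144, 197, 158 and 183 CPM in the BCL and 162, 162, 168 and 161 CPM in the GCL, which overlapped. The ONL, at 57.4, 42.9, 34.2 and 83.8 CPM, lay below both. The log2 fold change of Grik5 was -1.37 ± 0.20 between the ONL and BCL (adjusted p = 7.77e-08), -1.47 ± 0.16 between the ONL and GCL (adjusted p = 1.60e-11) and -0.10 ± 0.16 between the BCL and GCL (adjusted p = 0.684, 95% interval -0.42 to 0.22). Grik4, the gene of GluK4, was near the limit of detection. It had 14, 6, 11 and 7 UMIs in the GCL, 1, 1, 0 and 0 in the BCL and 2, 2, 0 and 0 in the ONL. A count of 0 allows up to 3 UMIs, which is 15.2 CPM in section 3 of the BCL. The deeper GCL libraries had 8.99 to 17.8 CPM, on both sides of that floor. Grik4 passed the low-count filter only through its GCL libraries, so any call on it could only point towards the GCL. It was called lower than in the GCL in the ONL (-2.68 ± 0.60, adjusted p = 0.000126) and in the BCL (-2.53 ± 0.79, adjusted p = 0.00868), the latter not by DESeq2 (adjusted p = 0.0790) and not without section 3 (adjusted p = 0.0619). Such a floor covers counting error only.

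Among the AMPA subunits, Gria4, the gene of GluA4, rose from layer to layer. It had 51.2, 22.1, 25.1 and 35.5 CPM in the ONL, 124, 106, 107 and 109 CPM in the BCL and 265, 250.3, 235 and 248 CPM in the GCL. The 3 layers did not overlap. The log2 fold change was -1.34 ± 0.24 for the ONL against the BCL (adjusted p = 6.39e-06), -2.67 ± 0.17 for the ONL against the GCL (adjusted p = 1.94e-20) and -1.34 ± 0.17 for the BCL against the GCL (adjusted p = 3.34e-09).

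Gria3, the gene of GluA3, was a GCL-high gene with little in the BCL. Its 3 to 6 UMIs per BCL library gave 15.5, 28.8, 20.3 and 29.7 CPM, and the ONL had 13.7, 6.92, 20.5 and 3.22 CPM, against 89.2, 82.4, 108 and 88.8 CPM in the GCL. The GCL lay above the BCL and the ONL, whose ranges overlapped. Gria3 was lower than in the GCL by -2.11 ± 0.30 in the BCL (adjusted p = 4.92e-08) and by -2.81 ± 0.26 in the ONL (adjusted p = 3.66e-14), and was not called between those layers (-0.70 ± 0.45, adjusted p = 0.236). The summed list of 8 ganglion cell markers had 4725 to 5276 CPM in the GCL, 279 to 514 CPM in the BCL and 242 to 531 CPM in the ONL. The list of 7 amacrine markers had 1327 to 1502 CPM, 584 to 776 CPM and 235 to 434 CPM. No gene of either list was at 0, and the part of these cells in the GCL-high subunits was not tested.

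Gria1 and Gria2, the genes of GluA1 and of the edited subunit GluA2, were not told apart between the BCL and GCL. Gria2 had 98.004, 91.2, 102 and 114 CPM in the BCL and 117, 105, 95.3 and 137 CPM in the GCL, and Gria1 had 108, 48.0, 35.6 and 69.2 CPM in the BCL and 67.5, 71.9, 61.5 and 61.5 CPM in the GCL. In the ONL, Gria2 had 35.0, 13.8, 6.85 and 25.8 CPM and Gria1 18.7, 9.68, 2.28 and 9.67 CPM, below the other layers without overlap. The BCL against GCL log2 fold change was -0.33 ± 0.21 for Gria2 (adjusted p = 0.227, 95% interval -0.75 to 0.09) and -0.19 ± 0.26 for Gria1 (adjusted p = 0.628, 95% interval -0.71 to 0.34). Both genes were lower in the ONL. For Gria2 the log2 fold change was -1.89 ± 0.29 against the BCL (adjusted p = 2.72e-07) and -2.22 ± 0.22 against the GCL (adjusted p = 1.32e-12). For Gria1 it was -2.15 ± 0.37 (adjusted p = 2.75e-06) and -2.34 ± 0.29 (adjusted p = 6.22e-10).

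Counted over the 9 members, 0 were higher in the ONL than in the BCL and 6 were higher in the BCL, in a comparison that called 36.7% of all 11324 genes tested, with 18.5% favouring the ONL and 18.2% the BCL. Between the ONL and GCL, 0 members favoured the ONL and 8 the GCL, where 61.5% of all genes were called, with 29.3% favouring the ONL and 32.2% the GCL. Between the BCL and GCL, 1 member favoured the BCL and 5 the GCL, against 36.5% called in all, 16.1% higher in the BCL and 20.4% higher in the GCL. The 8 and the 5 include Grik4, which passed the low-count filter only through its GCL libraries and could only be called towards the GCL. The median log2 fold change of the members was -1.34, -2.32 and -1.10 in the 3 comparisons, beside 0.09, 0.00 and -0.02 over all genes tested. These comparisons share libraries and are not independent of each other.

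The scaling sets where 0 lies. Scaling by the library total alone moved the median over all genes by -0.34, -0.17 and 0.17 in the 3 comparisons. It also moved the share of calls that were higher in the first layer from 50.5% to 29.3% for the ONL against the BCL (40.1% in DESeq2) and from 44.1% to 55.7% for the BCL against the GCL. Every call on a member was made under that scaling too, in the same direction, and the uncalled Grik5 difference between the BCL and GCL changed sign (0.07 ± 0.16).

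**Figure D2:**
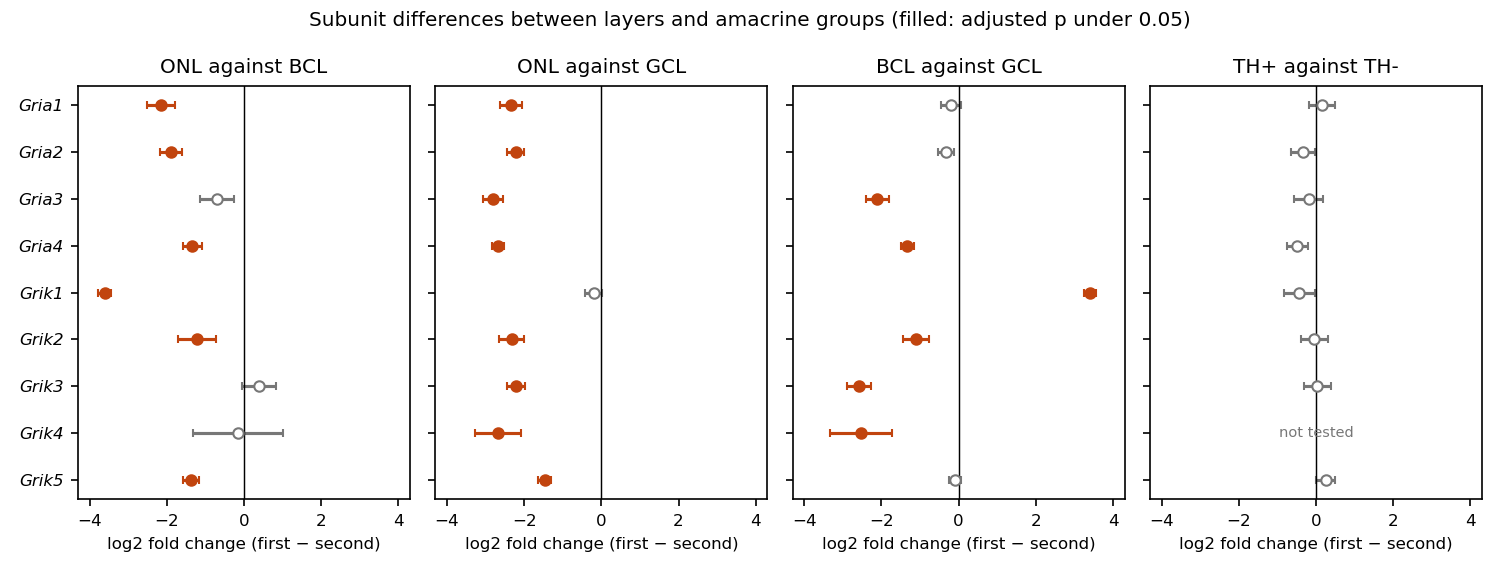
log2 fold change with SE of each subunit in the 4 comparisons (x axis, first group minus second, from the edgeR fit); filled points have an adjusted p under 0.05. Grik1 alone lies to the right among the filled points, at 3.41 for the BCL against the GCL, and none of the 8 subunits tested between TH+ and TH- cells is filled.

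Levels of different genes can be compared after division by gene length, here CPM per kb of the gene length given with the 3T3 cell counts of the series. In the BCL the order was led by Grik1 at 104.5 ± 9.65 CPM per kb, then Grik5 at 33.0 ± 4.59 and Gria4 at 17.6 ± 1.35, and these 3 did not overlap. In the GCL, Gria4 led at 39.6 ± 1.94, followed by Grik5 at 31.5 ± 0.61. The next 5 genes, Grik3, Gria1, Gria3, Grik1 and Gria2, each overlapped their neighbour in that order, from 11.3 down to 7.30 CPM per kb, and their order changed with the transcript length used. In the ONL, Grik5 at 10.6 ± 4.20, Grik1 at 6.96 ± 2.07 and Gria4 at 5.31 ± 2.08 formed an overlapping group above the rest. The lowest member was Grik4 in each layer. Among all genes with a UMI in the BCL, Grik1 lay above 98.8% on this per-length scale and Grik5 above 93.4%, and in the GCL Gria4 lay above 95.8%. In the ONL the highest member, Grik5, lay above 82.7%.

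The composition of each family differed between layers. Grik1 made up 73.8% ± 2.83 of the summed kainate level per kb in the BCL (71.6% to 77.9% over the sections), 15.1% ± 4.62 in the GCL and 34.8% ± 3.01 in the ONL, with no overlap. Grik5 was the leading kainate subunit elsewhere, at 55.6% ± 3.72 in the GCL and 51.4% ± 2.69 in the ONL, against 23.3% ± 2.56 in the BCL. Grik3 took 19.9% ± 2.30 in the GCL and 1.504% ± 0.69 in the BCL. Divided by the length of the canonical GENCODE vM39 transcript, which for Grik1 is 3570 bases in place of 6721, the Grik1 share was 82.9% in the BCL and 23.6% in the GCL, and in the ONL Grik1, at 48.2%, passed Grik5, at 41.1%. In the GCL Grik1 then also passed Grik3, at 16.2%.

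In the AMPA family Gria4 had the largest mean share in each layer, with 59.0% ± 1.08 in the GCL, 56.5% ± 3.796 in the ONL and 47.8% ± 5.03 in the BCL. Gria1 made up 27.8% ± 8.89 of the BCL sum and 16.2% ± 1.165 of the GCL sum, and Gria2, whose edited product makes AMPA receptors impermeable to calcium, 17.7% ± 2.91 and 10.9% ± 1.56. Gria3 made up 6.61% ± 2.28 of the BCL sum and 13.9% ± 2.01 of the GCL sum. The order below Gria4 depended on the length. Without division by length Gria2 stood second, at 33.9% in the BCL and 21.7% in the GCL, above Gria1 at 21.0% and 12.6%. With the canonical transcript length Gria3 passed Gria1 in the GCL, at 20.2% against 13.5%. The summed AMPA level was 0.26 ± 0.04 of the summed kainate level in the BCL, 1.19 ± 0.12 in the GCL and 0.48 ± 0.14 in the ONL. The BCL range of 0.22 to 0.32 touched the ONL range of 0.31 to 0.64, and both lay below the GCL range of 1.008 to 1.26. Shares and sums are descriptions and were not tested.

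**Figure D3:**
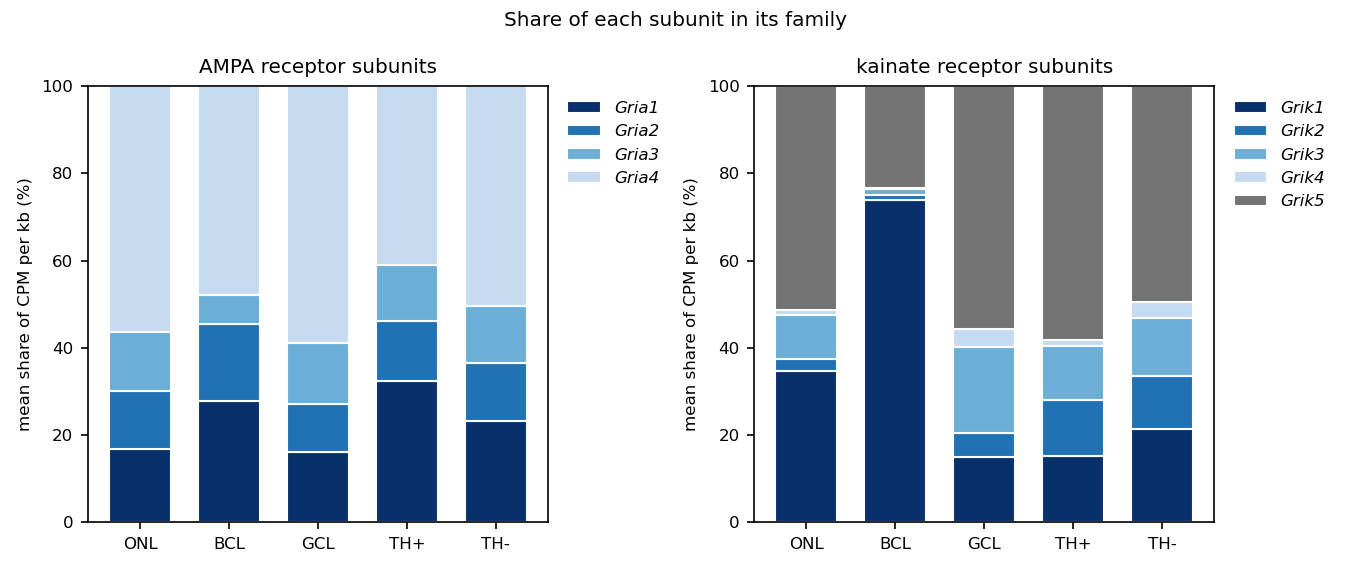
Mean share (%) of each subunit in the summed CPM per kb of its family, AMPA on the left and kainate on the right, over 4 sections for the ONL, BCL and GCL and 5 for TH+ and TH- cells. Grik1 fills 73.8% of the kainate bar in the BCL and 15.1% in the GCL, and Gria4 is the largest AMPA share in all 5 groups.

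The amacrine sections set dopaminergic cells, which release dopamine as the retina adapts to light, against the other amacrine cells around them. None of the 8 subunits that passed the low-count filter was called, in a comparison that called 0.83% of all 6021 genes tested. At an unadjusted p under 0.05 the count was also 0 in edgeR, where 8.85% of all genes tested passed that limit. DESeq2 gave 0 members by either limit, with 2.82% of the 18415 genes it gave a p under the unadjusted one. The median log2 fold change of the 8 was -0.12, beside -0.05 over all genes. With the section as a replicate block the same comparison called 148 genes in place of 50, and still 0 members. In that fit 1 of the 8 members had an unadjusted p under 0.05, beside 10.8% of all genes.

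Gria4 was the AMPA subunit with the largest difference. TH+ libraries had 81.7, 297, 94.1, 195 and 165 CPM and TH- libraries 191, 336, 216, 215 and 317 CPM in sections 1 to 5. TH+ was lower within each of the 5 sections although the ranges overlapped, and the log2 fold change was -0.48 ± 0.27 (adjusted p = 0.638, 95% interval -1.02 to 0.07; adjusted p = 0.381 with the replicate block). Only 4 to 26 UMIs lay behind each TH+ value.

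Grik1 gave 61.3, 114, 94.1, 86.5 and 33.0 CPM in TH+ and 85.5, 150.4, 164, 150 and 14.1 CPM in TH- libraries. The last TH- value rests on 2 UMIs of 141886, far below the other TH- sections. The fold change of -0.43 ± 0.41 (adjusted p = 0.843) had a 95% interval of -1.25 to 0.39. Grik5 pointed the other way, at 245, 263, 259, 151 and 198 CPM in TH+ against 237, 208, 186, 165 and 162 CPM in TH- libraries, and 4 of 5 sections were higher in TH+ (0.25 ± 0.24, adjusted p = 0.845, 95% interval -0.24 to 0.74). The bipolar list, with Gng13 of its 8 genes at 0 in TH+, had 527.8 to 1464 CPM in TH+ and 761 to 2455 CPM in TH- libraries, and the Müller glia list, with none at 0, 2903 to 4323 and 4109 to 6578 CPM. Their part in the Gria4 and Grik1 values was not tested.

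For the other subunits the groups overlapped widely. Gria1 had 94.1 to 160 CPM in TH+ and 59.2 to 179 in TH- libraries, Gria2 94.1 to 204 and 104 to 260.4, and Gria3 33.0 to 143 and 86.8 to 131. Grik2 had 47.1 to 195 and 37.2 to 191 CPM, and Grik3 64.9 to 137 and 67.0 to 118. Their log2 fold changes lay between -0.34 and 0.16, and the 95% intervals reached from -0.96 to 0.84, so sizeable differences either way lay within the error. Grik4 failed the filter, with 0, 1, 1, 0 and 0 UMIs in TH+ and 2, 4, 1, 3 and 3 in TH- libraries.

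Levels in the amacrine sections, a separate experiment, are set beside those of the layers without a test. The Grik2 mean was 120.3 ± 53.4 CPM in TH+ and 123 ± 61.4 in TH- libraries (n = 5), against 40.3 ± 6.52 in the GCL and 21.3 ± 2.83 in the BCL (n = 4). Gria1 was at 121 ± 26.5 and 115 ± 54.7 CPM, against 65.6 ± 5.09 in the GCL. Grik5 led per kb in TH+ cells at 43.2 ± 9.24 and Gria4 in TH- cells at 40.4 ± 10.5, but in both groups the 2 overlapped. Of the summed kainate level, Grik5 made up 58.1% ± 8.16 in TH+ and 49.5% ± 5.92 in TH- cells. Of the summed AMPA level, Gria1 made up 32.5% ± 2.6997 in TH+ and 23.2% ± 9.06 in TH- cells, and Gria4 40.9% ± 12.9 and 50.4% ± 7.29. These shares overlapped between the groups. The AMPA to kainate ratio was 0.84 ± 0.18 in TH+ and 1.08 ± 0.27 in TH- cells.

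A non-neuronal reference was at hand in the mixed-culture wells of the series, where mouse 3T3 embryonic fibroblasts carried their own barcode. Gria2, Gria4, Grik1 and Grik3 had 0 UMIs in all 3 wells, which allows up to 14.5 to 22.1 CPM. Gria1 had 13, 7 and 16 UMIs (95.9, 33.9 and 80.4 CPM), so its level there overlapped those of the BCL and GCL. Gria3 had 0, 7 and 4 UMIs, Grik2 1, 8 and 2, Grik5 1, 2 and 1, and Grik4 0, 0 and 1. The paper reports that a small part of the reads in these wells carried the barcode of the other species. Its mouse-barcoded reads were mapped to the mouse genome alone for UMI counts. The part of human reads in these values was not tested.

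Kainate receptors are joined by the auxiliary subunits Neto1 and Neto2, which shape their gating. Neto1 had 294, 168, 137 and 173 CPM in the BCL, against 12.5, 6.92, 11.4 and 25.8 CPM in the ONL and 10.2, 31.5, 24.6 and 10.2 CPM in the GCL. The BCL was thus above both other layers in each section, as for Grik1. The log2 fold change of Neto1 was -3.59 ± 0.30 for the ONL against the BCL (adjusted p = 5.38e-15) and 3.15 ± 0.26 for the BCL against the GCL (adjusted p = 8.64e-15), and the ONL and GCL were not told apart (-0.44 ± 0.39, adjusted p = 0.341). Neto2 had the opposite order between the BCL and GCL, with 61.9, 48.0, 40.7 and 54.4 CPM in the BCL and 145, 153, 135 and 108 CPM in the GCL. It was lower in the BCL than in the GCL by -1.57 ± 0.22 (adjusted p = 3.07e-08) and lower in the ONL, at 13.8 to 23.7 CPM, than in either (adjusted p = 0.00612 against the BCL and 6.34e-17 against the GCL).

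**Figure D4:**
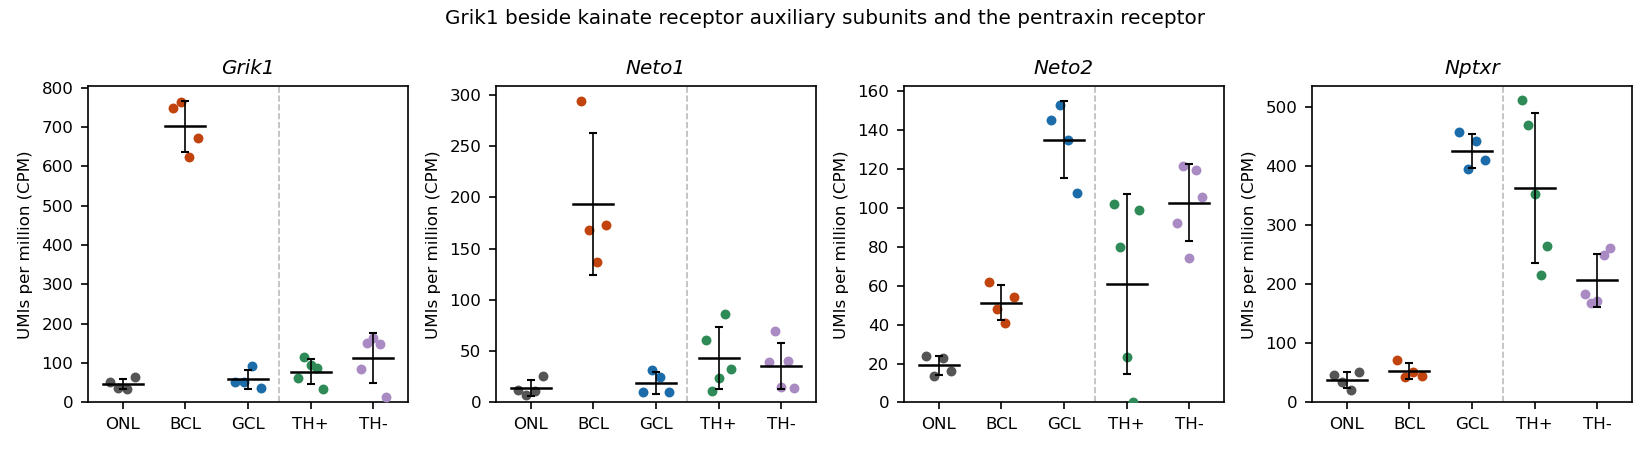
CPM (y axis, own scale per panel) of Grik1, the auxiliary subunits Neto1 and Neto2, and the pentraxin receptor gene Nptxr in every library, with group means and SD. Grik1 and Neto1 are highest in the BCL (Neto1 137 to 294 CPM), and Neto2 and Nptxr are higher in the GCL than in the other layers.

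AMPA receptors have their own auxiliary subunits, among them the TARPs (the Cacng genes), the cornichons Cnih2 and Cnih3 and the Shisa proteins, which set trafficking and gating. Of the 12 tested, the BCL exceeded the ONL for 8, the GCL exceeded the ONL for 11 and the GCL exceeded the BCL for 7, with 0 in the other direction each time. Over all genes tested these directions took 18.2%, 32.2% and 20.4%. Their median log2 fold change was -1.36, -2.38 and -1.05, beside the medians over all genes given above. The 11 and the 7 include Cnih3, which had 4 UMIs over all ONL libraries and 1 over all BCL libraries. Cnih3 passed the low-count filter only through its GCL libraries, so it could only be called towards the GCL. Cacng5 (TARP γ-5) was the clearest GCL gene, with a mean of 152.6 CPM in the GCL, 11.2 in the BCL and 15.8 in the ONL, lower in the BCL than in the GCL by -3.90 ± 0.32 (adjusted p = 2.62e-15). Cacng2 (stargazin) rose from 19.8 in the ONL to 58.9 in the BCL and 126.8 CPM in the GCL, and Cnih2 from 11.6 to 51.1 and 100.5 CPM, each step called. Cacng7, at 277 CPM in the BCL and 273 in the GCL (adjusted p = 0.434), and Cacng4, at 161 and 144.5 CPM (adjusted p = 0.996), were not called between these layers, and both were lower in the ONL (adjusted p = 4.50e-08 and 5.17e-09 against the BCL). Cacng8 failed the filter.

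Genes that help build AMPA receptors in the endoplasmic reticulum were a short list. Of the 4, 2 were higher in the BCL than in the ONL, 3 higher in the GCL than in the ONL and 1 higher in the GCL than in the BCL, with 0 in the other direction and medians of -1.10, -1.65 and -0.47. Beside the 18.2%, 32.2% and 20.4% of all genes called in these directions, the single gene of the last comparison was near the background. Frrs1l, which is needed for AMPA receptor assembly, was lower in the ONL than in the BCL by -1.63 ± 0.29 (adjusted p = 6.00e-06) and lower in the BCL than in the GCL by -0.74 ± 0.21 (adjusted p = 0.00334). Cpt1c, which binds AMPA receptors on their way through it, was also lowest in the ONL (adjusted p = 1.49e-07 for the BCL and 2.78e-09 for the GCL).

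Synaptic scaffold and trafficking genes were mixed. Of 9, the ONL exceeded the BCL for 2 and the reverse held for 4, the ONL exceeded the GCL for 3 and the reverse held for 5, and the GCL exceeded the BCL for 4 and the reverse for 0, with medians of -0.30, -0.65 and -0.91. Over all genes 18.5% were higher in the ONL than in the BCL and 29.3% higher in the ONL than in the GCL, so the ONL-higher counts were near the background. The opposite directions took 18.2% of all genes for the BCL over the ONL, 32.2% for the GCL over the ONL and 20.4% for the GCL over the BCL. Among the genes higher in the ONL than in the BCL was Dlg1 (0.63 ± 0.22, adjusted p = 0.0213). It lost that call under DESeq2 (adjusted p = 0.133), with size factors of the DESeq2 kind (0.0587), with the library total (0.361) and without section 2 (0.0809) or 3 (0.161). Dlg4, the gene of the scaffold PSD-95, was higher in the ONL, at a mean of 1307 CPM, than in the BCL at 855 CPM (0.94 ± 0.11, adjusted p = 2.83e-10) and in the GCL at 666 CPM (1.13 ± 0.10, adjusted p = 3.13e-14). Dlg2 (PSD-93), with 745 CPM in the GCL against 371 in the BCL and 199 in the ONL, and Grip1, which binds GluA2 and GluA3, with 128 against 53.8 and 20.6 CPM, were higher in the GCL than in either other layer. The higher BCL than ONL level of Dlg2 was lost without section 2 (adjusted p = 0.0567).

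The neuronal pentraxins, secreted or membrane proteins that gather AMPA receptors at synapses, were for 3 of 3 higher in the GCL than in each other layer, and 0 of 3 were called between the ONL and BCL. Of all genes, 32.2% were higher in the GCL than in the ONL, 20.4% higher in the GCL than in the BCL and 36.7% called between the ONL and BCL. The medians were -2.47 for the ONL and -2.63 for the BCL against the GCL. Nptxr had 457, 394, 441 and 410 CPM in the GCL against 43.2 to 72.2 in the BCL, a log2 fold change of -3.18 ± 0.19 for the BCL against the GCL (adjusted p = 1.71e-20). Nptx1 was at 408 against 73.4 CPM (-2.63 ± 0.18, adjusted p = 1.375e-17). Nptxr was also the 1 gene of these lists called between the amacrine groups, where the count was 0 of 11 AMPA auxiliary, 0 of 2 kainate auxiliary, 0 of 4 assembly, 0 of 7 scaffold and 0 of 2 editing genes tested, in a comparison that called 0.83% of all genes. Its TH+ libraries had 510, 469, 353, 216 and 264 CPM and its TH- libraries 184, 168, 171, 249.6 and 261 CPM, and in section 4 TH+ was the lower. The log2 fold change was 0.86 ± 0.23 (adjusted p = 0.0495; 0.00204 with the replicate block), and the call was lost without section 1, 2 or 3 (adjusted p = 0.386, 0.307 and 0.242) or without the low-count filter (adjusted p = 0.227). The summed list of 8 rod markers, none at 0, was 14031 to 36523 CPM in TH+ and 7949.6 to 21159 CPM in TH- libraries, and its part in the Nptxr difference was not tested.

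Adarb1, the gene of the enzyme that edits the Q/R codon, had 600, 562, 529 and 552 CPM in the GCL and 165, 197, 152 and 237 CPM in the BCL, without overlap. It was lower in the BCL than in the GCL by -1.74 ± 0.17 (adjusted p = 1.66e-12) and in the ONL by -2.33 ± 0.16 (adjusted p = 4.08e-19). The smaller ONL against BCL difference of -0.58 ± 0.21 (adjusted p = 0.0252) was lost without section 2, 3 or 4. Between the amacrine groups Adarb1 had 265 to 518 CPM in TH+ and 594 to 691 in TH- libraries, which did not overlap, but the adjusted p was 0.256 (0.0617 with the replicate block). Both editing genes were called lower in the ONL and the BCL than in the GCL, directions that took 32.2% and 20.4% of all genes, and Adar, the gene of the other active editing enzyme, was lower in the BCL than in the GCL by -0.86 ± 0.18 (adjusted p = 8.16e-05).

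Grid1, the gene of GluD1, is a relative in the same superfamily. It was higher in the BCL at 84.7 CPM than in the GCL at 38.7 CPM (0.96 ± 0.25, adjusted p = 0.00131). In that comparison, though not in every one, this was the pattern of Grik1 and Neto1. Grid1 was lower in the ONL than in the BCL by -3.50 ± 0.36 (adjusted p = 9.16e-12).

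Over the 12 layer libraries, the tested genes with the most similar log2 CPM pattern to Grik1 were Adgrl2, Fat4 and Onecut3 (Pearson r = 0.99, 0.99 and 0.98). Gria4 was most like Bsn, the gene of the active zone protein Bassoon (r = 0.996), Gng3 (r = 0.995) and Mtss2 (r = 0.995). Grik3 was most like Camk2a (r = 0.98), a kinase of the postsynaptic density, and Gria2 was most like Fmn2 (r = 0.99). Among all 36 pairs of members, with no minimum level, Gria4 and Grik2 were the most alike (r = 0.98) and Grik1 and Grik3 the least (r = -0.48). The 12 points share layer, section and depth and fall into 3 groups, so these values describe the layer pattern, and that of a sparse gene such as Grik2 rests on few UMIs.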

How the data were processed

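The authors extracted UMIs with UMI-tools 1.1.1, mapped the cDNA reads to mm39 with STAR 2.7.9a, kept only alignments to a single place of up to 40 bases of cDNA, counted those in exons of GENCODE genes with featureCounts at its default, unstranded setting, and collapsed UMIs within each gene. The deposited counts are whole numbers of UMIs per gene without normalization. Members and gene lists were chosen with earlier results of these data known.

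Layers were fitted over 12 libraries and amacrine cells over 10 in edgeR 4.0.16 (R 4.3.3; quasi-likelihood tests, TMM scaling, filterByExpr at min.count 3 and min.total.count 10), with Benjamini-Hochberg adjustment over all genes at 0.05. The SE is the log2 fold change over the square root of F. Tables and figures used python 3.11.15, pandas 2.3.3 and matplotlib 3.10.9. All 9 members are named, and of each other list at most 4 called genes per comparison with the smallest adjusted p, plus Neto1, Neto2 and Adarb1. Cacng7 and Cacng4 between the BCL and GCL, and Cacng8, were named after their values were seen. Cacng2 between the ONL and BCL also lies outside this limit, and that call was not followed under the alternatives. Likeness used log2 CPM with a prior count of 2. The genes most like a member were sought for members with a mean of at least 20 UMIs, and pairs of members were compared without that limit.

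The labels place libraries with the same number in the same section, which pairs them. Their residuals correlated at 0.012 to 0.049 over 12 layer pairs and at 0.029 to 0.257 over 5 amacrine pairs, and those of different sections at -0.061 to 0.043 and -0.117 to 0.042. Alternatives were DESeq2 1.42.0, other size factors, other filters, the replicate block, mitochondrially encoded genes left out and each section left out. Protein sequences, intronic reads, the pooled layer library and the deeper mixed-culture run were not analysed here.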

Additional observations from a re-analysis of the deposited data

Results flagged for a closer look

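Of 45 sets of member and group, 2 held a library far from the others of its group by Dixon's ratio, where chance gives about 2.25. Grik3 had 137 CPM in TH+ section 2, from 12 UMIs, against 64.9 to 81.7 CPM in the other TH+ sections. Gria3 had 131 CPM in TH- section 1, from 20 UMIs, against 86.8 to 91.6 CPM in the other TH- sections.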

How the results depend on the processing

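The number of members called was 5 to 6 between the ONL and BCL, 7 to 8 between the ONL and GCL, 4 to 6 between the BCL and GCL and 0 between the amacrine groups, under each alternative. DESeq2 gave the low ends of 5 and 4. Counts against the GCL in the main fit include Grik4, which passed the low-count filter only through its GCL libraries. The replicate block gave 6, 8, 6 and 0 and ended no call. It raised the count over all genes between the amacrine groups from 50 to 148, and without the block that count was 29 without section 3 and 31 without section 5. Among the 91 log2 fold changes of named genes, no called one reversed. Those that did were not called under any setting: Grik5 for the BCL against the GCL gave 0.072 with the column total only; between the amacrine groups Grik2 gave 0.0181 with the edgeR default filter, Grik3 -0.11 and Neto1 -0.0609 without the low-count filter, and Grik3 -0.0204 with the replicate block. With each section left out in turn, Grik3 ranged from -0.24 to 0.76 and Grik4 from -0.304 to 0.044 for the ONL against the BCL, and Grik1 from -0.44 to 0.19 and Neto1 from -0.88 to 0.15 for the ONL against the GCL. Between the amacrine groups the ranges were -0.00322 to 0.418 for Gria1, -0.38 to 0.15 for Grik2, -0.27 to 0.17 for Grik3 and -0.35 to 0.87 for Neto1. The cause was not tested. Of 45 shares of subunits, 21 moved by more than 1 SD with the canonical transcript length, an alternative chosen after seeing the data, and 27 without division by length.

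The layers came from 1 animal, and TH+ libraries held at most 87449 UMIs, with 0 to 26 UMIs of each member in a library. With the canonical length Grik1 passed Grik5 in the ONL and Grik3 in the GCL, and Gria3 passed Gria1 in the GCL and ONL. Without division by length Gria2 passed Gria1 in each layer.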
